A study of Mus musculus with 6 samples.

Results

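The genes described here act in proteolysis at the cell surface, and were measured in regulatory T cells (Tregs), the CD4+ lymphocytes marked by Foxp3 that hold immune responses in check. They are 9 of the 15944 genes with a row in the deposited table: the membrane metalloproteinase gene Mmp25, 7 ADAM genes (Adam8, Adam9, Adam10, Adam12, Adam15, Adam17 and Adam19) and the inhibitor gene Timp2. All 9 had a row, and none was lost to a filter. The genes were chosen by symbol with the normalized counts of both sorts, compared below, already known. Their differences between the sorts are therefore a description. Calls of the fit over all genes are counted for them only beside the share of all genes, and support nothing.

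The study sequenced RNA in bulk from Tregs sorted from spleens of C57BL/6 mice, with 3 libraries per sort. RORγt+ Tregs were sorted as CD3+, CD4+ and positive for the reporters Foxp3(RFP) and RORγt(GFP), which stand for Foxp3 and for RORγt, the transcription factor that directs type 17 T cell programmes. CCR6+RORγt- Tregs were CD3+, CD4+, positive for Foxp3(RFP), negative for RORγt(GFP), and stained for the chemokine receptor CCR6. Thus both sorts came from mice with both reporters, and CCR6 gated the second sort only. The comparison sets RORγt+ Tregs against Tregs that have CCR6 but lack RORγt. The labels give neither age nor sex of the mice, name no treatment, and do not say whether a library came from 1 animal or a pool.

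Metalloproteinases of this kind cut other proteins at the cell surface with a zinc ion held in the active site. ADAM proteins span the membrane and release ("shed") the outer parts of their targets. ADAM17 is known for releasing TNF, and ADAM10 for the cut that precedes Notch signalling. MMP25, also called MT6-MMP, is fixed to the membrane by a lipid anchor and is best known from human neutrophils. TIMP2 belongs to the tissue inhibitors that block such enzymes.

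The zinc-binding motif that unites the 8 enzymes is shown first, as the coding bases of each gene, because it is the feature that the family name rests on. It was located by translating the longest coding transcript of GENCODE release M21 (GRCm38), and a match was found in all 8 enzyme genes and not in Timp2, whose product is an inhibitor. Each stretch is 33 coding bases, 5′ to 3′ on the gene's strand, with the codons of the motif's 3 histidines and 1 glutamate in capitals.
Mmp25: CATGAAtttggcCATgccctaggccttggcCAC
Adam8: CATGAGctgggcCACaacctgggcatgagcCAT
Adam12: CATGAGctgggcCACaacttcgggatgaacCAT
Adam19: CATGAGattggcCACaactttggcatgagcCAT
Adam9: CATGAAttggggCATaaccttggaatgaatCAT
Adam15: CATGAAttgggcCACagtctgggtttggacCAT
Adam10: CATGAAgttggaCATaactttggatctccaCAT
Adam17: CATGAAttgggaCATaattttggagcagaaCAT
The stretches lie in coding exons at chr17:23632843-23632875 (minus strand) for Mmp25, chr7:139987893-139987925 (minus) for Adam8, chr7:133961158-133961190 (minus) for Adam12 and chr11:46125050-46125082 (plus) for Adam19. Those of Adam9, Adam15 and Adam17 lie at chr8:24990326-24990358, chr3:89344780-89344812 and chr12:21336732-21336764, all on the minus strand. In Adam10 the stretch is divided by an intron, between chr9:70754296 and chr9:70761585 on the plus strand. Mmp25 shared 19 to 22 of the 33 bases with the ADAM genes. Among the ADAM genes, Adam8 shared 29 with each of Adam12 and Adam19, and Adam10 shared 26 with Adam17. The search itself required the histidines, the glutamate and a glycine at fixed places, so part of each count follows from the search.

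Column totals of the table, which holds normalized counts, lay between 11325902 and 11890770. Judged from the smallest step between values, libraries held some 9210000 to 14500000 reads, fewest in RORγt+ replicate 3, which also had the weakest correlation with the others. That library correlated best with CCR6+RORγt- replicate 1, a library of the other sort, and its weight in a fit with library weights was 0.199, against 1.15 to 1.69 for the rest. Ccr6, the transcript of the receptor used in the second gate, stood at 698, 815 and 900 normalized counts in RORγt+ Tregs, against 112, 142 and 148 in CCR6+RORγt- Tregs, so it was higher in the sort that was not gated on it. Foxp3 lay between 10835 and 12609 in RORγt+ Tregs and between 9790 and 10187 in CCR6+RORγt- Tregs, so both sorts carried the defining Treg transcript. No label ties a library to an animal of its own. The p-values below therefore cover the spread among these 6 libraries, part of which may be technical.

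Mmp25, Adam12 and Adam8 had higher values in every RORγt+ library than in any CCR6+RORγt- library, by wide margins. The 2 best known sheddases, Adam10 and Adam17, and also Adam19, were at overlapping levels in the sorts. By limma's moderated test on log2(normalized count + 1), with Benjamini-Hochberg adjusted p under 0.05 over all genes, the fit called 3 of the 9, all 3 higher and 0 lower, which is no test of genes picked from the same values. Over all 15944 genes, 0.564% passed, 0.320% higher and 0.245% lower in RORγt+ Tregs. The groups did not overlap in 5 of the 9 genes, all 5 higher in RORγt+ Tregs (Mmp25, Adam12, Adam8, Adam9 and Timp2). That was so in 18.1% of all genes, 8.31% higher and 9.81% lower. Since the genes were picked from this comparison, nothing is read from these shares. The count of 3 changed with single libraries, while the log2 fold changes stayed between 4.29 and 5.39 for Mmp25, 2.78 and 3.37 for Adam12, and 1.63 and 2.03 for Adam8. With RORγt+ replicate 1 or 2 left out, or CCR6+RORγt- replicate 1 or 3, 0 of the 9 were called, and the calls over all genes, 90 with every library, were 4 to 8. Leaving out RORγt+ replicate 3 kept 2 (Adam12 and Mmp25) among 174 calls, and leaving out CCR6+RORγt- replicate 2 kept 1 (Mmp25) among 10.

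**Figure D1:**
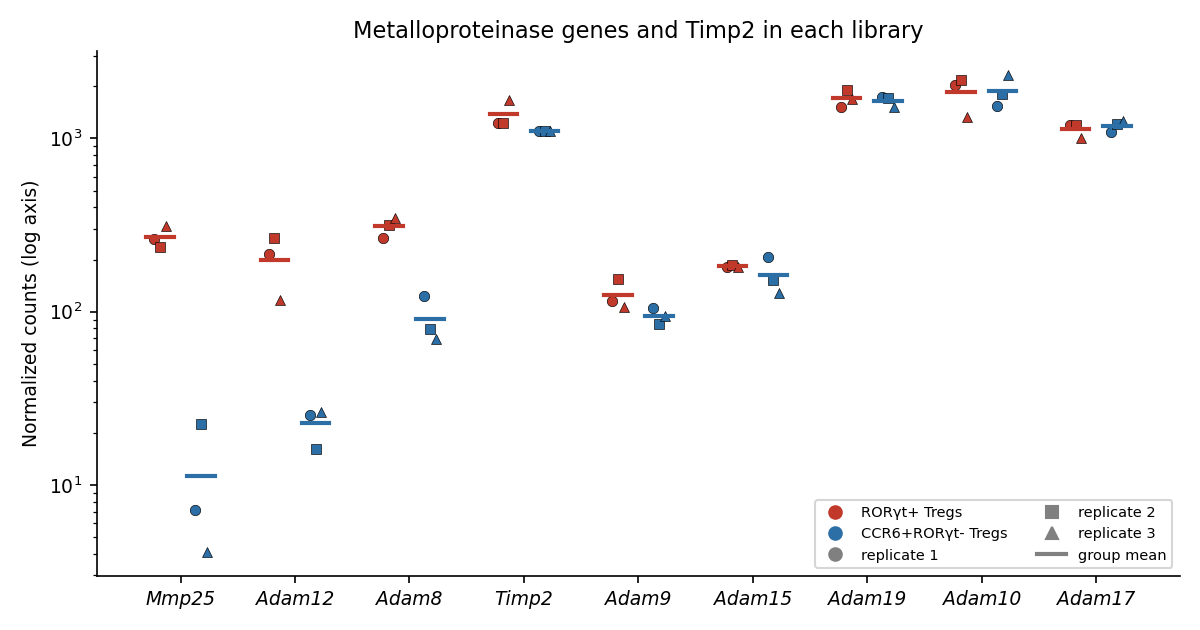
Normalized counts (log axis) of the 9 genes in each of the 6 libraries, RORγt+ Tregs in red and CCR6+RORγt- Tregs in blue, with the marker shape giving the replicate and the line the group mean. Mmp25, Adam12 and Adam8 separate widely, and Adam15, Adam19, Adam10 and Adam17 overlap.

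Mmp25 (chromosome 17, 23628311 to 23645277, minus strand, GRCm38) had 264, 237 and 312 normalized counts in RORγt+ Tregs, against 7.13, 22.6 and 4.11 in CCR6+RORγt- Tregs. The lowest RORγt+ library was 10.5 times the highest CCR6+RORγt- library. Means were 271 ± 38.1 and 11.3 ± 9.91 (SD, n = 3 each), a 24.0-fold ratio, and the log2 fold change was 4.77 ± 0.54 (SE), which ranked 7 from the top of the 15944 genes. The low group rests on about 6.9, 24.8 and 5.0 reads per library, so its level and the fold are imprecise. CCR6+RORγt- replicate 2 was the highest of its group. In bulk RNA, more cells with the transcript and more transcript per cell cannot be told apart. Of the 31-base windows of Mmp25 transcripts, 1.1% also occur, on either strand, in transcripts of other genes.

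Adam12, whose product is known to cut growth factor precursors and their binding proteins, had 214, 266 and 117 normalized counts in RORγt+ Tregs, against 25.5, 16.2 and 26.2 in CCR6+RORγt- Tregs. RORγt+ replicate 3 was well below the other 2 of its group, yet 4.45 times the highest CCR6+RORγt- library. The means of 199 ± 76.0 and 22.6 ± 5.57 (SD, n = 3 each) gave a ratio of 8.79 and a log2 fold change of 3.03 ± 0.37 (SE). The gene lies at chromosome 7, 133883199 to 134232146, minus strand. Adam8, an ADAM of leukocytes, lies on the same chromosome at 139978932 to 139992562, also on the minus strand. It had 266, 318 and 348 normalized counts in RORγt+ Tregs, against 124, 79.7 and 69.9 in CCR6+RORγt- Tregs. Every RORγt+ library was at least 2.15 times every CCR6+RORγt- library. Means were 310 ± 41.4 and 91.1 ± 28.7 (SD, n = 3 each), with a ratio of 3.41 and a log2 fold change of 1.79 ± 0.26 (SE). The spread within the CCR6+RORγt- sort was wider for Mmp25 (87.9% of the mean) than for Adam8 (31.5%) or Adam12 (24.6%).

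Timp2, the inhibitor, had 1234, 1222 and 1671 normalized counts in RORγt+ Tregs, against 1099, 1104 and 1096 in CCR6+RORγt- Tregs. The groups do not overlap, but the gap between them is small and RORγt+ replicate 3 alone carries much of the difference in means. The log2 fold change was 0.31 ± 0.15 (SE), and 0.16 without that library. Adam9, a widely expressed ADAM, had 115, 154 and 106 normalized counts in RORγt+ Tregs, against 105, 84.9 and 94.9 in CCR6+RORγt- Tregs. Its nearest libraries in the 2 groups, at 106 and 105, nearly touch, and the log2 fold change was 0.38 ± 0.23 (SE). Adam9 and Timp2 share no 31-base window with other genes.

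Adam10 had 2040, 2164 and 1326 normalized counts in RORγt+ Tregs, against 1530, 1794 and 2335 in CCR6+RORγt- Tregs. The lowest and the highest of the 6 libraries were the replicates numbered 3, and the groups overlap over most of their range. Its log2 fold change of -0.04 ± 0.23 (SE) turned to 0.18 when RORγt+ replicate 3 was left out and was -0.18 when replicate 2 of that sort was. Adam17 was the steadiest of the 9, with 1187, 1198 and 1012 normalized counts in RORγt+ Tregs, against 1093, 1203 and 1252 in CCR6+RORγt- Tregs. Its highest library was 1.24 times its lowest, and the log2 fold change was -0.06 ± 0.13 (SE). Of its exon bases, 311 overlap the gene Iah1 on the opposite strand, and the sources used here do not say whether reads were counted by strand.

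Adam19, which is known to cut neuregulin, had 1513, 1903 and 1692 normalized counts in RORγt+ Tregs, against 1729, 1709 and 1522 in CCR6+RORγt- Tregs. The sorts overlap fully, with a log2 fold change of 0.04 ± 0.13 (SE). Adam15, whose human protein carries an integrin-binding sequence, had 182, 186 and 182 normalized counts in RORγt+ Tregs, against 208, 151 and 129 in CCR6+RORγt- Tregs. The RORγt+ libraries were almost equal (SD 1.3% of the mean) and lay inside the range of the other sort (SD 25.0%). The log2 fold change was 0.20 ± 0.22 (SE). The level of Adam15 is uncertain, as 18% of its windows also occur, on either strand, in other genes' transcripts and 1263 exon bases overlap an antisense gene. Both figures can count the same bases, since windows were compared on both strands. Adam19 has 587 and 480 exon bases under 2 antisense genes, and Adam8 has 46 under 1 gene of the opposite strand. Shared windows made up 9.42% for Adam19, 7.25% for Adam17, 4.17% for Adam12, 0.334% for Adam8 and 0.0202% for Adam10.

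Levels of different genes can be set side by side only per length, here as normalized counts per kilobase of the gene's median coding transcript. In RORγt+ Tregs the order of mean levels per kilobase was Adam10 (707), Timp2 (622), Adam19 (267), Adam17 (255), Adam8 (100), Adam12 (96.1), Adam15 (64.4), Mmp25 (59.8) and Adam9 (32). Neighbours overlapped in range for Adam10 and Timp2, for Adam19 and Adam17, and along the run from Adam8 through Adam12 and Adam15 to Mmp25. In CCR6+RORγt- Tregs the order was Adam10 (723), Timp2 (497), Adam17 (266), Adam19 (259), Adam15 (57.1), Adam8 (29.4), Adam9 (24.3), Adam12 (10.9) and Mmp25 (2.49), and only Adam17 with Adam19 and Adam8 with Adam9 overlapped. The 4 most abundant genes per kilobase were thus the same in both sorts. Mmp25 had the lowest mean per kilobase of the 9 in CCR6+RORγt- Tregs and stood beside Adam15 in RORγt+ Tregs. Over all genes with a length, levels per kilobase averaged over all 6 libraries of both sorts put Adam10 at the percentile 88.5, Timp2 at 85.2, Adam19 at 71.4 and Adam17 at 71.1, and the other 5 between 33.5 and 44.8. For Mmp25 that average describes neither sort. The place of Adam12 depends on which transcript is used: with its longest transcript its level in RORγt+ Tregs was 25.9 per kilobase, the lowest of the 9. Other levels in that sort also fell with the longest transcript: Adam10 to 401, Timp2 to 371, Adam8 to 84.6 and Adam15 to 46.8. Mmp25, unchanged at 59.8, then stood above Adam15.

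**Figure D2:**
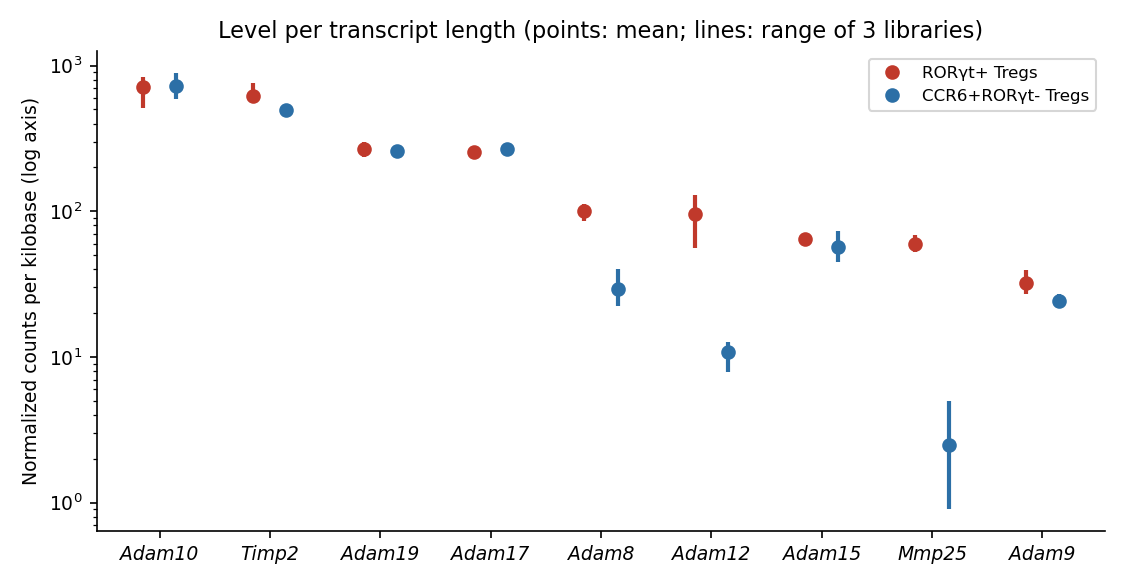
Mean normalized counts per kilobase (log axis) of the 9 genes in RORγt+ Tregs (red) and CCR6+RORγt- Tregs (blue), with lines for the range of the 3 libraries. Adam10, Timp2, Adam19 and Adam17 lead in both sorts, and Mmp25 stands at 59.8 in RORγt+ Tregs and at 2.49 in CCR6+RORγt- Tregs.

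Other genes of the pathway were read from 6 lists drawn up from textbook knowledge. No gene of these lists passed limma's test over all genes. Of the other matrix metalloproteinases, 7 of 22 had a row and 0 passed, with 1 at an unadjusted p under 0.05, against 10.9% of all genes. Mmp9, a secreted gelatinase also stored in neutrophils, had 117, 69.4 and 226 normalized counts in RORγt+ Tregs, against 42.4, 67.9 and 37.1 in CCR6+RORγt- Tregs. Its groups do not overlap, and its log2 fold change of 1.35 ± 0.46 (SE) did not pass (limma adjusted p = 0.343). Mmp14, the membrane-spanning collagenase, had 59.0, 60.7 and 31.6 normalized counts in RORγt+ Tregs, against 69.2, 93.3 and 57.3 in CCR6+RORγt- Tregs. Mmp17, named after its values were seen because it is the other lipid-anchored member of the family, had 13.4, 8.31 and 6.19 in RORγt+ Tregs, against 51.6, 12 and 11.5 in CCR6+RORγt- Tregs (log2 fold change -1.05 ± 0.65, SE). Neither gene passed, and the highest Mmp17 value was in CCR6+RORγt- replicate 1.

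Of 20 other ADAM genes listed, 3 had a row and 0 passed, with 0 at an unadjusted p under 0.05. The most abundant, Adam1a, a sperm fertilin gene, had 85.8, 80.1 and 76.5 normalized counts in RORγt+ Tregs, against 37.9, 35.6 and 88.3 in CCR6+RORγt- Tregs, and Adam4 lay between 1.25 and 18.1 over all 6 libraries. Adam6b, which was not on the list, also had a row, at 12.6 ± 1.83 and 15.2 ± 7.01 (RORγt+ and CCR6+RORγt- Tregs, SD, n = 3 each). Of the ADAMTS genes, secreted relatives that remodel the matrix, 9 of 24 had a row and 0 passed, with 1 at an unadjusted p under 0.05. The leading ones were Adamts10, at 1289 ± 193 and 1177 ± 107 normalized counts, and Adamts6, at 1013 ± 362 and 1066 ± 163 (RORγt+ and CCR6+RORγt- Tregs, SD, n = 3 each). Both overlapped between the sorts. Of 7 other inhibitors, 2 had a row and 0 passed, with 0 at an unadjusted p under 0.05. Reck, a membrane-anchored inhibitor, had 71.1, 47.9 and 81.7 normalized counts in RORγt+ Tregs, against 179, 42.4 and 76.0 in CCR6+RORγt- Tregs. Cst3, at 750.0 ± 203 and 569 ± 30.6, inhibits cysteine proteinases and not metalloproteinases, and stood on that list in error.

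Among genes that carry sheddases to the surface or activate them, 9 of 13 had a row and 0 passed. At an unadjusted p under 0.05 there were 2, 1 higher and 1 lower in RORγt+ Tregs, and the median log2 fold change of the 9 was 0.08. Frmd8, which holds the iRhom and ADAM17 complex at the surface, had 2849 ± 995 and 2305 ± 307 normalized counts (RORγt+ and CCR6+RORγt- Tregs, SD, n = 3 each). Tspan14, a tetraspanin partner of ADAM10, had 1001 ± 296 and 857 ± 90.0. The remaining genes of this paragraph were named after their values were seen. Rhbdf2, the iRhom that carries ADAM17 to the surface in immune cells, had 168, 169 and 211 normalized counts in RORγt+ Tregs, against 119, 112 and 108 in CCR6+RORγt- Tregs. Its groups do not overlap, but its log2 fold change of 0.69 ± 0.19 (SE) missed the threshold (limma adjusted p = 0.241). Furin, the convertase that removes the inhibitory part of many ADAM and membrane-type MMP proteins, overlapped between the sorts (log2 fold change 0.56 ± 0.25, limma adjusted p = 0.481). The convertase genes Pcsk7 (-0.88 ± 0.34, SE) and Pcsk5 (-1.13 ± 0.63, at low counts) went the other way. Their sorts overlapped too, and neither gene passed.

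Of 23 genes whose products are known to be shed by ADAM10 or ADAM17, 21 had a row and 0 passed limma's test. The median log2 fold change of the 21 was -0.19, against -0.011 over all genes. At an unadjusted p under 0.05 there were 8, 1 higher and 7 lower in RORγt+ Tregs, against 10.9% of all genes. The groups did not overlap in 9, 1 higher and 8 lower, against 18.1% of all genes, 8.31% higher and 9.81% lower. Under other settings, members of the list passed: Il1r2, Lag3, Nrp1 and Tnfrsf8 with library weights, and Lag3 and Nrp1 without RORγt+ replicate 3. Notch1, the receptor of the Notch pathway, had 3439 ± 539 and 4574 ± 790 normalized counts (RORγt+ and CCR6+RORγt- Tregs, SD, n = 3 each). The next 4 were named after their values were seen. Tnfrsf8, which encodes CD30, had 74.3, 109 and 106 normalized counts in RORγt+ Tregs, against 225, 260 and 209 in CCR6+RORγt- Tregs (log2 fold change -1.26 ± 0.22, limma adjusted p = 0.0736). Il1r2, the IL-1 decoy receptor, had 75.5, 70.0 and 51.2 in RORγt+ Tregs, against 195, 275 and 148 in CCR6+RORγt- Tregs (-1.61 ± 0.29, limma adjusted p = 0.0771). Areg, the growth factor amphiregulin, had 14.7, 10.9 and 11.2 in RORγt+ Tregs, against 28.9, 29.1 and 22.2 in CCR6+RORγt- Tregs. Jag1, a Notch ligand, had 34.4, 35.0 and 30.1 in RORγt+ Tregs, against 10.6, 7.14 and 14.2 in CCR6+RORγt- Tregs (1.60 ± 0.38, limma adjusted p = 0.173). These values are transcript levels and say nothing of how much protein was released.

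**Figure D3:**
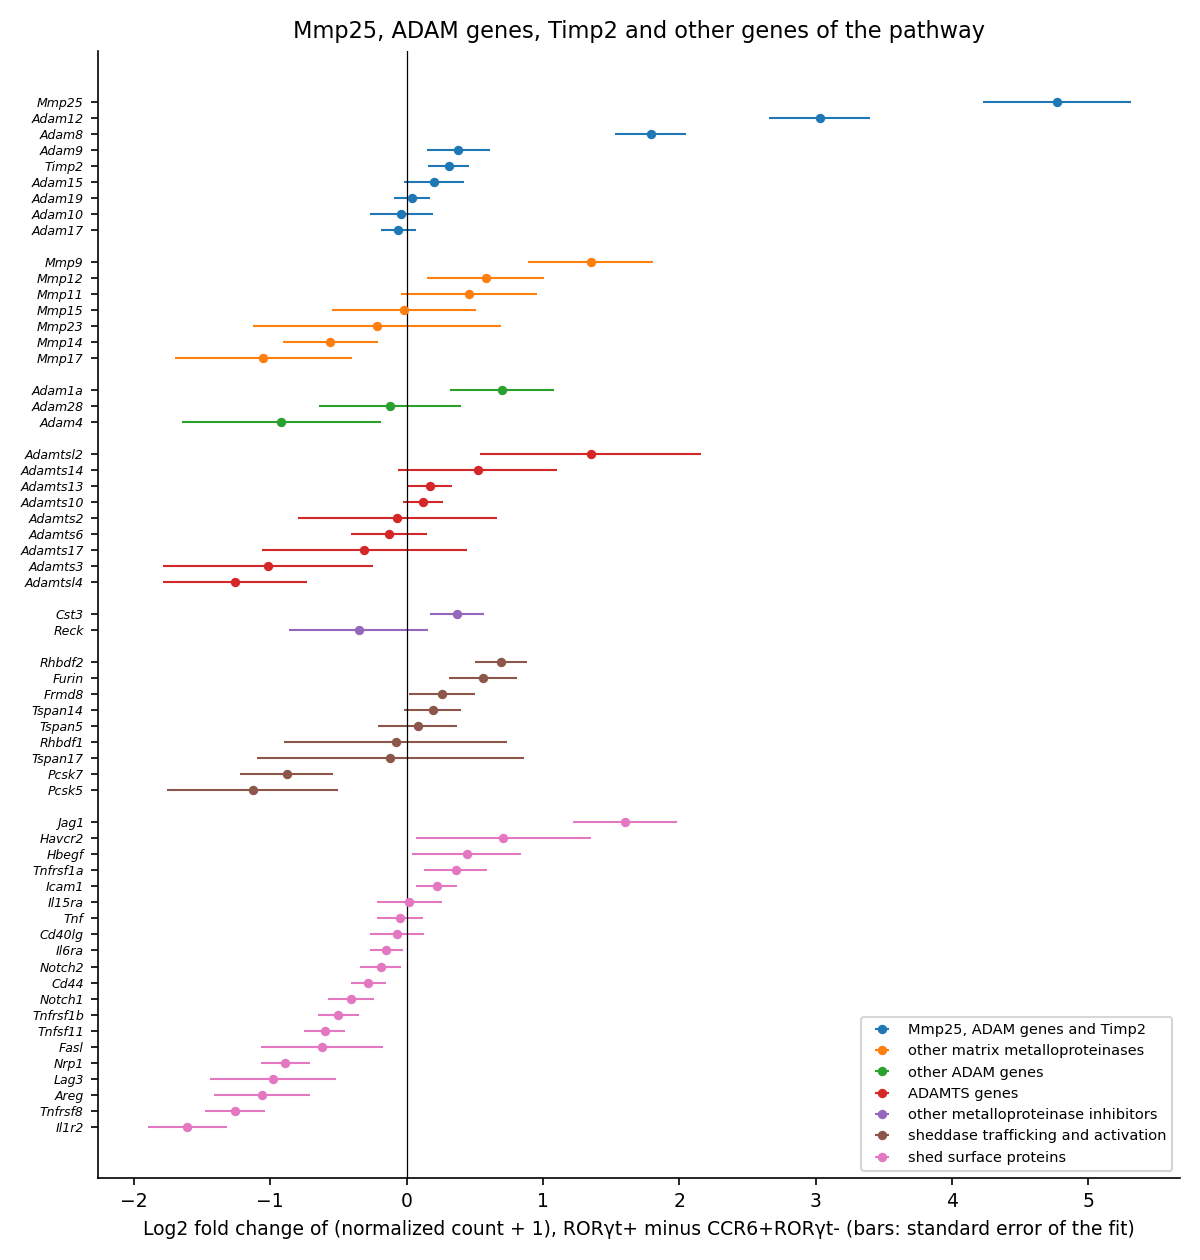
Log2 fold change of normalized count + 1, RORγt+ minus CCR6+RORγt- Tregs, with the standard error of the fit, for the 9 genes and for other pathway genes of the 6 lists, 1 listed gene not shown. Mmp25 (4.77), Adam12 (3.03) and Adam8 (1.79) lie to the right of every other gene drawn, the highest of which is Jag1 (1.60).

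Mmp25 and Adam8 are also genes of myeloid cells, so markers of other cells were read beside them. Of 14 neutrophil markers, 4 had a row, and their summed level was 124 to 251 normalized counts in RORγt+ Tregs and 70.8 to 95.4 in CCR6+RORγt- Tregs, led by Mmp9. S100a9, which encodes a calcium-binding protein abundant in neutrophils, had 2.13, 17.8 and 0 normalized counts in RORγt+ Tregs and was listed at 0 in all 3 CCR6+RORγt- libraries. In RORγt+ replicate 3, which had the highest Mmp25 value, 312, the neutrophil sum was also the highest of the 6 libraries (251) and Mmp9 stood at 226, while S100a9 was at 0. In CCR6+RORγt- replicate 2, the library of its sort with the most Mmp25, the neutrophil sum was the highest of that sort (95.4, against 70.8 and 74.5 in replicates 1 and 3). Mmp9 made up most of that sum (67.9, against 42.4 and 37.1 in replicates 1 and 3). Csf3r was also highest of the sort there (3.89, against 1.45 and 1.17), while Cxcr2 was lowest (23.6, against 26.9 and 36.2). Cxcr2 stood at 26.4 ± 4.61 and 28.9 ± 6.51 (SD, n = 3 each), and was lowest of the 6 libraries in RORγt+ replicate 3 (21.2). Of 12 monocyte and macrophage markers, 5 had a row. Their sum was 96.5 to 152 in RORγt+ Tregs and 43.3 to 69.1 in CCR6+RORγt- Tregs, led by Lyz2 (37.1, 81.6 and 9.97 in RORγt+ Tregs, against 4.09, 23.6 and 4.10 in CCR6+RORγt- Tregs) and Itgam (55.7, 48.5 and 22.2, against 14.3, 14.4 and 17.9). In CCR6+RORγt- replicate 2 it was 69.1, against 45.4 and 43.3 in replicates 1 and 3. Adam8 was highest in RORγt+ replicate 3, where the monocyte and macrophage sum was the lowest of its group and the neutrophil sum, mostly Mmp9, the highest. The part of these cells in the levels of Mmp25 and Adam8 was not tested.

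The summed levels of the other marker lists overlapped between the sorts. All 8 B cell markers had a row, with sums of 245 to 586 normalized counts in RORγt+ Tregs and 189 to 404 in CCR6+RORγt- Tregs, with Cd79b the most abundant (189 ± 30.2 and 179 ± 34.5, SD, n = 3 each), followed by Pax5. The sum of 404 was that of CCR6+RORγt- replicate 2, the library of its sort with the most Mmp25. The neutrophil and the monocyte and macrophage sums were also highest of that sort there. So, narrowly, was the stromal and endothelial sum (2290, against 2280 and 2040 in replicates 1 and 3). The γδ T cell sum was not (189, against 132 and 195). Mmp9 made up most of the neutrophil sum in that library (67.9 of 95.4 normalized counts), and Cxcr2 was lowest of its sort there. Of 9 stromal and endothelial markers 5 had a row, with sums of 2180 to 2660 and 2040 to 2290, nearly all of it Pecam1, which T cells also express, while Col1a2 stood at 11.8 ± 2.91 and 19.1 ± 2.37 (SD, n = 3 each). Of 8 γδ T cell markers 7 had a row, with sums of 181 to 243 and 132 to 195. The most abundant, Trdc, had 99.8, 89.2 and 109 normalized counts in RORγt+ Tregs, against 51.5, 61.8 and 71.5 in CCR6+RORγt- Tregs, and Tcrg-C1 overlapped between the sorts. None of the listed markers of other cells passed limma's test, and 5 with a row had an unadjusted p under 0.05, all 5 higher in RORγt+ Tregs (Mmp9, Itgam, Cdh5, Trdc and Cd163l1), against 10.9% of all genes in either direction.

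The start of Mmp25 is shown because it is the gene with the widest difference and the sorts differ by RORγt, whose family binds the half-site AGGTCA. The 242 bases before the annotated gene, at chr17:23645278-23645519 (minus strand, RefSeq, GRCm38.p6), read as follows.
Mmp25 promoter: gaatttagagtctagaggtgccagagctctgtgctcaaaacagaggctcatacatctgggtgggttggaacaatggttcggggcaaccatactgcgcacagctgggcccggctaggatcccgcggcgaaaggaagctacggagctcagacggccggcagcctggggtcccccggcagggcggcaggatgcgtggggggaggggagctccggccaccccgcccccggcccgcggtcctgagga
No letters are in capitals, since none of the motifs searched on both strands occurs in it: AGGTCA, the STAT motif TTCNNNGAA, the AP-1 motif TGANTCA and the RUNX motif TGTGGT. Over all 32851 promoters of the table, 14.0% hold AGGTCA in the 250 bases before the start, 7.02% the STAT motif, 6.75% the AP-1 motif and 14.0% the RUNX motif. Promoter windows before the annotated gene were at hand for 6 of the 9 genes: Mmp25, Adam8, Adam10, Adam15, Adam17 and Adam19. Of these, only a window of Adam19, at chr11:46054252-46054501, holds AGGTCA, 141 bases before the RefSeq start that follows this window. The annotated Adam19 gene starts further on, at 46055992. Another window of Adam19 holds the AP-1 motif, and the window of Adam15 holds the RUNX motif. These are letters in a short window and describe no binding. G and C made up 66.5% of the Mmp25 stretch, against a median of 52.4% over all promoters.

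The measured genes nearest to Mmp25 were both of low level. AC154766.1, 7.4 kb away, had 5.54 ± 3.21 and 7.18 ± 2.72 normalized counts (RORγt+ and CCR6+RORγt- Tregs, SD, n = 3 each). Bicdl2, a dynein adaptor gene 15.2 kb away on the other side, had 4.61 ± 2.17 in RORγt+ Tregs and was listed at 0 in all 3 CCR6+RORγt- libraries, without passing the test (limma adjusted p = 0.233). Beside Adam8, the nearest genes Tubgcp2 and Utf1 had log2 fold changes of 0.02 and -0.20. Beside Adam12, Dhx32 and Gm9333 had 0.18 and -0.59. None of these 6 neighbours passed limma's test.

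The genes whose profile over the 6 libraries was closest to that of Mmp25 were found by the root-mean-square difference of log2(normalized count + 1), each centred on the gene's mean, among 11583 genes with a mean of at least 20. They were Serpinb1a, an inhibitor of neutrophil serine proteinases (difference 0.52), Lingo4 (0.53), the membrane protein gene Stom (0.75), the leukotriene B4 receptor gene Ltb4r1 (0.77) and Emp1 (0.77). Serpinb1a had 226, 234 and 376 normalized counts in RORγt+ Tregs, against 3.10, 36.3 and 5.20 in CCR6+RORγt- Tregs. Like Mmp25, it was highest of its group in CCR6+RORγt- replicate 2, as was Emp1, with 94.3, 108 and 162 in RORγt+ Tregs, against 7.20, 32.4 and 5.70 in CCR6+RORγt- Tregs. Lingo4 had 254, 344 and 216 in RORγt+ Tregs, against 8.13, 9.96 and 4.08 in CCR6+RORγt- Tregs. Being chosen for likeness over all 6 libraries, these genes share the difference between the sorts by construction. The choice also favours genes that resemble Mmp25 within a sort, as in CCR6+RORγt- replicate 2, so nothing is read from that likeness. By Pearson's r over the same 6 libraries a different 5 genes led, with 0 of the 5 shared: Smo, the Hedgehog signal transducer (r = 0.998), Gna15 (0.997), Ppp1r3f (0.994), S100a4 (0.991) and Amigo2 (0.990).

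**Figure D4:**
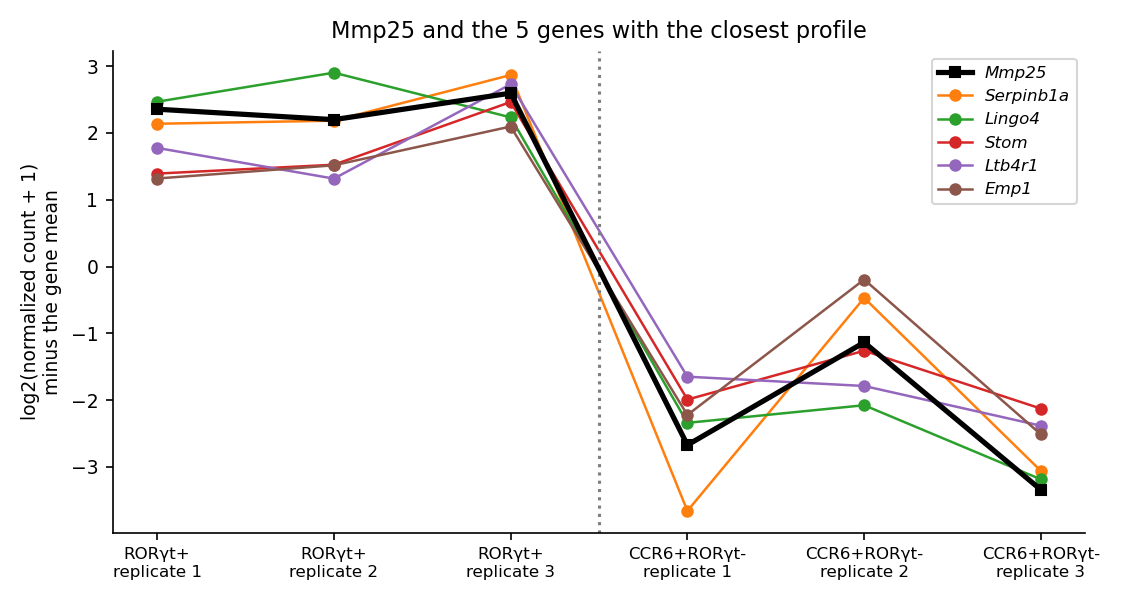
Log2(normalized count + 1) minus the gene's mean in the 6 libraries for Mmp25 (black squares) and the 5 genes of closest profile, RORγt+ Tregs left of the dotted line and CCR6+RORγt- Tregs right of it. In CCR6+RORγt- replicate 2, Mmp25 (22.6 normalized counts), Serpinb1a (36.3) and Emp1 (32.4) stand above the other 2 libraries of their group. The 5 genes were chosen for likeness over all 6 libraries, this one included.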

How the data were processed

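The submitters' processing notes name Salmon 1.2.0, DESeq2 (version not given) and GRCm38, without their roles. Per the values, the deposited table holds 1 signal value per gene and library, a size-factor normalized count to 2 decimals. Low values clustered at multiples of 0.822 to 1.24 per read, but only 51.4% to 69.9% of values up to 20 reads came to a whole read with a tolerance of 0.1. Raw counts were therefore not recovered and no count model was run. Totals divided by the step gave approximate depths. Of the gene identifiers, 15851 were found in GENCODE M21. Values were analysed as log2(normalized count + 1) with limma 3.58.1 in R 4.3.3 (group as the term, trended empirical Bayes, two-sided tests, p adjusted by Benjamini-Hochberg over 15944 genes, no filter, 4 residual and 3.43 prior degrees of freedom). Fold changes on that scale understate changes of low genes. The procedure was tested on simulated counts. Named are all 9 genes, the 2 most abundant genes of each list, any past the threshold and the 5 profiles closest to Mmp25. Genes named after their values were seen are marked as such. S100a9, Csf3r, Vcam1, Csf1r, Cd68 and the genes ranked by Pearson's r are among them. Neighbouring genes are the nearest with a row. Some listed genes that the naming rule selects are not reported here. The genes and lists were chosen with earlier results of these data known. Alternatives were other pseudocounts, scalings, filters, weights and variances, a replicate block and each library left out.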

Additional observations from a re-analysis of the deposited data

How the results depend on the processing

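Of all genes tested, 90 passed. Pseudocounts of 0.1 and 5, upper-quartile and column-total scaling, a mean of at least 10 and robust variances gave 84 to 103. The same 3 of the 9 genes passed under each. A mean of at least 1 was reached by all 15944 genes, so that filter removed none and only repeated the main fit. Library weights gave 358 genes, with 3 of the 9 genes and 4 shed surface proteins among them. Leaving out 1 library gave 4 to 174 genes, 0 to 2 of the 9 and 0 to 2 shed surface proteins; the cause was not tested. Mmp25 kept its call in 2, Adam12 in 1 and Adam8 in 0 of those 6 fits. A replicate block gave 1 gene and 0 of the 9 (1130 genes at an unadjusted p under 0.05). The numbers were not taken as pairs, because the labels do not say that a shared number marks a shared animal. For libraries of the same number, the deviations correlated at -0.11, -0.02 and -0.18. With 3 libraries per sort, these values cannot decide whether the numbers are pairs. In every setting run, the log2 fold changes ranged from 4.24 to 5.39 for Mmp25, 2.78 to 3.37 for Adam12 and 1.63 to 2.03 for Adam8. Those of Adam10, Adam17 and Adam19 lay between -0.18 and 0.18 and turned in sign. The other 5 pathway lists had 0 genes past the threshold in every setting. Low levels, such as those of Mmp25 in CCR6+RORγt- Tregs, are limited by depth.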

Other observations

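RORγt+ replicate 3 differed from the other RORγt+ libraries in several genes of the pathway. It had the highest Frmd8 of its group (3994, against 2355 and 2197 normalized counts in replicates 1 and 2), the highest Tspan14 (1338, against 781 and 883) and the highest Lag3 (483, against 137 and 154). It had the lowest Adam10 (1326) and Adamts6 (616) of all 6 libraries.

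Pcsk7, which encodes a proprotein convertase, had 797, 326 and 330 normalized counts in RORγt+ Tregs, against 847, 793 and 796 in CCR6+RORγt- Tregs. RORγt+ replicate 1 thus lay within the range of the CCR6+RORγt- libraries, and replicates 2 and 3 lay far below it (limma adjusted p = 0.403). The genes given here were named after their values were seen.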
